A study of Mus musculus with 4 samples.

Results

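The genes of mitochondrial and peroxisomal fatty acid oxidation described here are 33 enzymes, transporters and electron carriers, matched by gene symbol to 33 of the 13834 genes in an RNA sequencing table of mouse peritoneal macrophages. They were listed by function as the carnitine shuttle, the enzymes of beta-oxidation in mitochondria and peroxisomes, and the electron-transfer flavoproteins. The rule uses no measured value, but it was written with earlier results of these data known. All 33 passed the filter on low counts.

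Long-chain fatty acids enter mitochondria bound to carnitine. There, acyl-CoA dehydrogenases, hydratases, 3-hydroxyacyl-CoA dehydrogenases and thiolases shorten the chain in repeated cycles, and electron-transfer flavoproteins pass the electrons of the dehydrogenation step to the respiratory chain. Peroxisomes shorten very long and branched chains with enzymes of their own, and in macrophages fatty acid oxidation is best known as a fuel of alternatively activated cells.

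RNA was sequenced from 2 Dnmt1 fl/fl samples, whose floxed alleles are intact, and from 2 Dnmt1 KO samples, in which the floxed Dnmt1 gene is deleted by Cre driven from the myeloid LysM promoter. The study describes thioglycolate-elicited macrophages from mice of 10 weeks, washed from the peritoneal cavity 3 days after 2 ml of 4% thioglycolate broth, and then placed in culture. It does not give the age of the sequenced mice separately, nor whether the sequenced cells had been cultured. The control samples carry the genotype label wt, and no further treatment is labelled. For Dnmt1 fl/fl, replicate 1 had a total of 20228071 counts and replicate 2 had 24198943. For Dnmt1 KO, the totals were 21767795 in replicate 1 and 22611219 in replicate 2. Levels are given below as CPM, counts divided by the library total times its TMM factor from edgeR and multiplied by a common constant. Such CPM do not add up to the same total in every sample.

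The macrophage label was checked first. All 9 of 9 macrophage markers were in the table, with a summed level of 36000 CPM in Dnmt1 fl/fl replicate 1, 34980 CPM in Dnmt1 fl/fl replicate 2, 18434 CPM in Dnmt1 KO replicate 1 and 21887 CPM in Dnmt1 KO replicate 2. Most of that sum came from the lysozyme gene Lyz2, the gene whose older name is LysM, at 29531, 28587, 11351 and 15745 CPM in the same order. Csf1r, the receptor for the macrophage growth factor CSF1, was at 1126, 1053, 1011 and 1075 CPM. Adgre1, which encodes F4/80, was at 942, 774, 700.4 and 986 CPM. Lyz2 was thus lower in both Dnmt1 KO samples, while Csf1r and Adgre1 were abundant in all 4 samples and overlapped between genotypes.

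Dnmt1 KO replicate 1 stood apart from the other 3 samples. Its TMM factor was 0.91, against 1.02, 1.04 and 1.04 in the other samples. Neutrophil markers, of which 10 of 12 were in the table without Camp and Ngp, summed to 934 CPM in Dnmt1 KO replicate 1 and to 228, 332 and 226 CPM in Dnmt1 fl/fl replicates 1 and 2 and Dnmt1 KO replicate 2. Their most abundant gene, Csf3r, was at 158, 137, 169 and 159 CPM in the order given for Lyz2, whereas S100a9 was at 5.55, 60.5, 320.1 and 8.35 CPM. The 8 of 8 B cell markers, with Ighm the most abundant, summed to 408 and 552 CPM in Dnmt1 fl/fl, to 187 CPM in Dnmt1 KO replicate 1 and to 624 CPM in Dnmt1 KO replicate 2. Signal of neutrophil genes was thus highest, and of B cell genes lowest, in Dnmt1 KO replicate 1, and S100a9 was intermediate in Dnmt1 fl/fl replicate 2. In bulk RNA, fewer cells of a type and less RNA per cell cannot be told apart, and the part of these cells in the results below was not tested.

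Markers of resident large peritoneal macrophages (8 of 8, most abundant Cd9) summed to 929, 828, 994 and 733 CPM in Dnmt1 fl/fl replicates 1 and 2 and Dnmt1 KO replicates 1 and 2, a sum that followed Cd9 at 495, 485, 856 and 340.5 CPM. Of these 8 markers, 7 were lower in Dnmt1 KO replicate 1 than in replicate 2, by a median over the 8 of -1.15 on the log2 scale, and 7 had a log2 fold change below 0 between genotypes. Prg4 was among them, at 203, 82.7, 28.4 and 182 CPM. Monocyte markers (6 of 6, most abundant Ccr2) summed to 1148, 1560, 1176 and 1346 CPM. Dendritic cell markers (7 of 7, most abundant Clec10a) summed to 345, 123, 237 and 305 CPM, mostly from Clec10a at 308, 88.1, 218 and 259.9 CPM, and 0 of the 7 were higher in Dnmt1 KO replicate 1 than in replicate 2 (median difference -0.79 on the log2 scale). Mesothelial markers (6 of 6, Krt8) summed to 7.02, 9.33, 14.6 and 5.47 CPM. All 6 were higher in Dnmt1 KO replicate 1 than in replicate 2 (median difference 0.81 on the log2 scale). T and NK cell markers (10 of 10, Nkg7) stayed between 26.8 and 40.4 CPM. Eosinophil markers (3 of 6, Ccr3, without Ear6, Epx and Prg2) were between 7.67 and 14.1 CPM, and mast cell markers (5 of 6, Cma1, without Ms4a2) between 6.53 and 10.4 CPM. Of the 5 adipocyte markers, 0 were among the 13834 genes; the table holds no value of 0, its lowest being 0.1.

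Dnmt1, the deleted gene, lies at chr9:20907209-20959888. It was at 86.6 and 67.0 CPM in Dnmt1 fl/fl replicates 1 and 2 and at 37.0 and 42.7 CPM in Dnmt1 KO replicates 1 and 2. Both Dnmt1 KO samples were below both controls, in the direction the labels give. The log2 fold change was -0.95, its standard error 0.24, and edgeR gave an adjusted p of 1.00. Counts per gene cannot show which exons the reads came from.

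Between genotypes, the 33 fatty acid oxidation genes leaned upward in Dnmt1 KO by small amounts, and the lean rested largely on Dnmt1 KO replicate 1. In edgeR's quasi-likelihood test, 0 of the 33 and 0 of all 12542 genes tested (0.0%) had an adjusted p under 0.05. At an unadjusted p under 0.05 there were 0 of the 33 and 35 of all genes (0.279%), and DESeq2 called 1 gene at the adjusted threshold and 39 at the unadjusted one. The log2 fold change of Dnmt1 KO against Dnmt1 fl/fl was above 0 in 29 of the 33, against 50.9% of all genes tested, and its median was 0.17, against 0.0046. Without Dnmt1 KO replicate 1 it was above 0 in 19 of the 33, with a median of 0.011, and without Dnmt1 KO replicate 2 in 28 of the 33, with a median of 0.25. With samples scaled by their totals alone, added after the data were seen, it was above 0 in 26 of the 33 and the median was 0.093, where that of every gene tested was -0.062. Both Dnmt1 KO samples were above both controls in 6 of the 33 (8.14% of all genes tested) and below both in 0 (8.56%). The 6 were Cpt1a, Crat, Acadm, Hadh, Scp2 and Decr2.

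Sample by sample, Dnmt1 KO replicate 1 was the highest of the 4 in 22 of the 33 genes, a position it held in 38.8% of all genes tested. It exceeded both controls in 25 of the 33 (41.0% of all genes) and was below both in 2 (41.9%), whereas Dnmt1 KO replicate 2 exceeded both in 10 (32.6%) and was below both in 8 (32.0%), ties being judged on unrounded CPM. The 33 levels summed to 2160 and 2030 CPM in Dnmt1 fl/fl replicates 1 and 2, and to 2560 and 2196 CPM in Dnmt1 KO replicates 1 and 2. Over all genes the sums were 985504, 964768, 1099073 and 958081 CPM in the same order. The sums of the 33 thus carry this difference in scaling, which is highest in Dnmt1 KO replicate 1. In 10 of the 33 the difference between genotype means on the log2(CPM + 1) scale was larger than the pooled SD of the replicates. The share of all genes for this measure is not given here, so the count cannot be read as particular to the 33. Standard errors of the 33 log2 fold changes ran from 0.20 to 0.47, and every one of the 33 had an adjusted p of 1.00 in edgeR, the lowest unadjusted p being 0.151 for Hadh. With 2 samples per genotype, an exact permutation test of a single gene cannot give a p below 0.333.

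**Figure D1:**
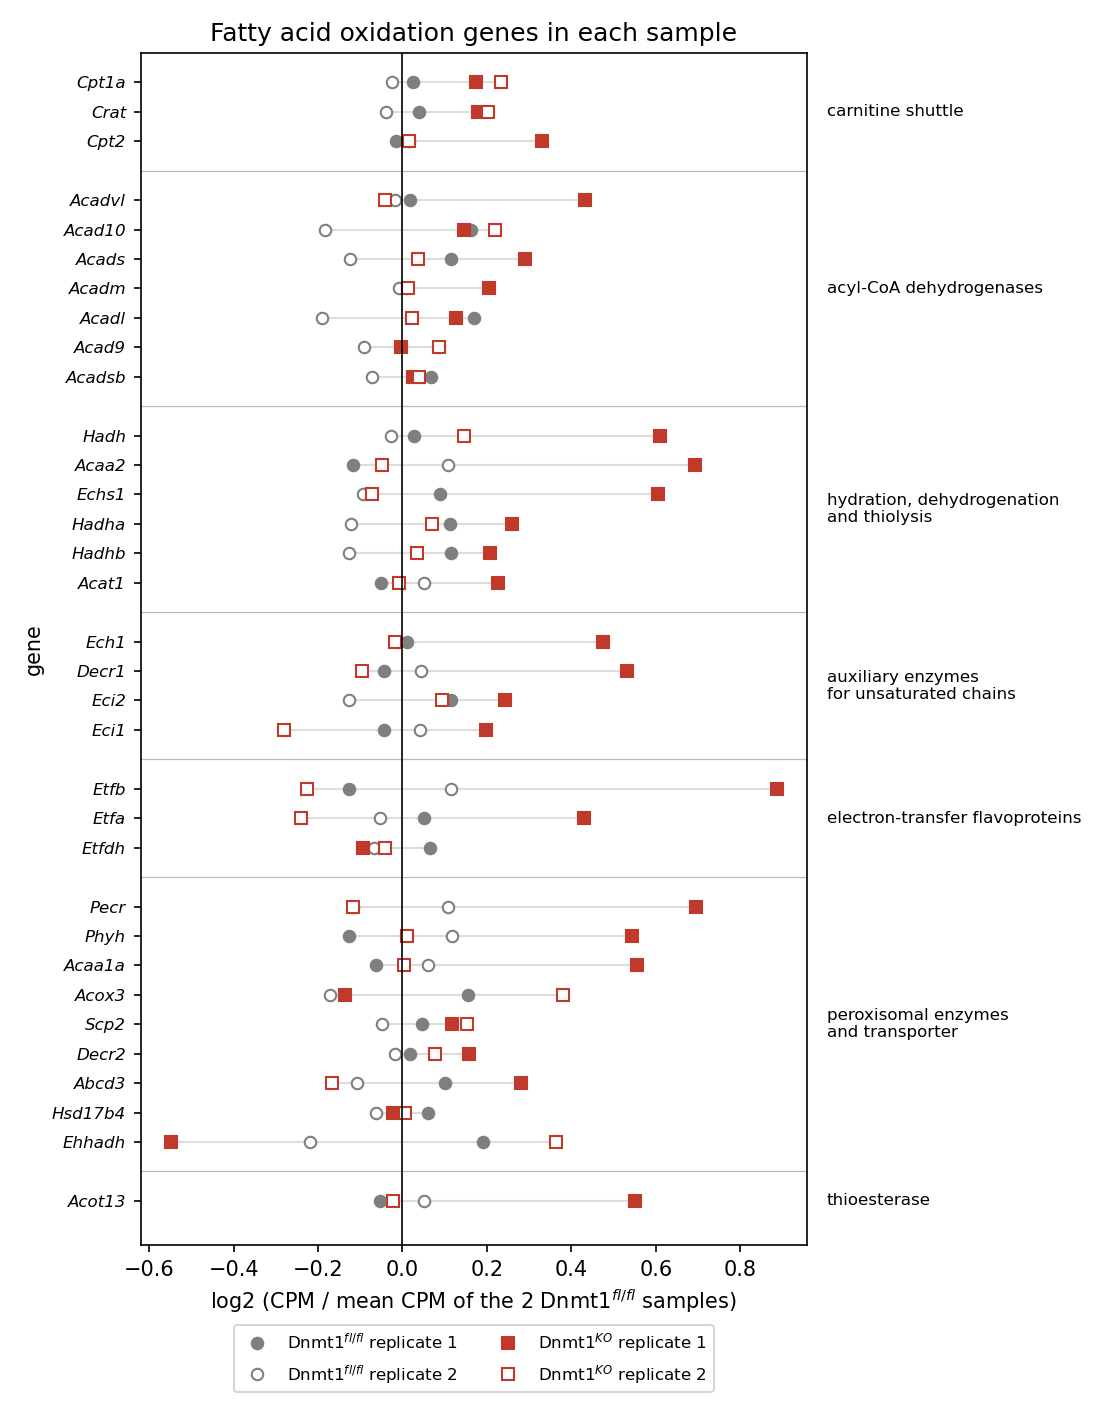
Each row is 1 of the 33 genes, grouped by role, and each point is the log2 ratio of the CPM of 1 sample to the mean CPM of the 2 Dnmt1 fl/fl samples. Dnmt1 KO replicate 1 (filled squares) is the highest of the 4 samples in 22 of the 33 genes, while Dnmt1 KO replicate 2 (open squares) is above both controls (circles) in 10, against 32.6% of all genes, and below both in 8, against 32.0%.

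Carnitine palmitoyltransferase 1a, encoded by Cpt1a (chr19:3322334-3385733), attaches carnitine to long-chain fatty acids at the outer mitochondrial membrane and is the main point at which their entry is controlled. Cpt1a was at 258 and 249 CPM in Dnmt1 fl/fl replicates 1 and 2 and at 286 and 298 CPM in Dnmt1 KO replicates 1 and 2. The Dnmt1 KO samples were close to each other and above both controls, a log2 fold change of 0.20 (standard error 0.21). Crat (chr2:30400471-30415813) encodes carnitine acetyltransferase, which exchanges acetyl groups between CoA and carnitine. Its levels were 87.6 and 83.0 CPM in the controls and 96.5 and 98.1 CPM in Dnmt1 KO, again apart by genotype, with a log2 fold change of 0.19 (standard error 0.21). Cpt2, the inner-membrane enzyme that returns the acyl group to CoA, was at 18.4 and 18.8 CPM in Dnmt1 fl/fl and at 23.4 and 18.8 CPM in Dnmt1 KO, so that Dnmt1 KO replicate 2 lay with the controls. These 3 genes had a log2 fold change between 0.18 and 0.20, that of Cpt2 being 0.015 without Dnmt1 KO replicate 1 and 0.33 without Dnmt1 KO replicate 2, and the difference between the Dnmt1 KO samples, replicate 1 minus replicate 2, was -0.061 in Cpt1a, -0.023 in Crat and 0.30 in Cpt2 on the log2 scale. The genotypes in Cpt1a and Crat overlapped when samples were scaled by their totals alone, a setting added after the data were seen. Log2 fold changes were then 0.14 in Cpt1a and 0.12 in Crat.

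The 7 genes of the acyl-CoA dehydrogenase family all had log2 fold changes above 0, from 0.033 in Acadsb to 0.21 in Acadvl. Several enzymes of this family open each cycle for chains of different length. Acadvl (chr11:70010183-70015411) encodes the very long-chain enzyme. It was at 47.4 and 46.3 CPM in Dnmt1 fl/fl and at 63.2 and 45.5 CPM in Dnmt1 KO replicates 1 and 2. Only Dnmt1 KO replicate 1 was above the controls, and leaving that sample out gave Acadvl a log2 fold change of -0.044. Acadm (chr3:153922357-153944632), the medium-chain enzyme and the most abundant of the 7 per kilobase of transcript, was at 65.3 and 64.6 CPM in the controls and at 74.9 and 65.5 CPM in Dnmt1 KO. Both Dnmt1 KO samples of Acadm were above both controls, replicate 2 only just, with a log2 fold change of 0.11 (standard error 0.21) that was 0.011 without Dnmt1 KO replicate 1 and 0.21 without Dnmt1 KO replicate 2. With samples scaled by their totals alone the log2 fold change of Acadm was 0.035. Acads, Acadl, Acadsb, Acad9 and Acad10 overlapped between genotypes. Acad10 was the least abundant, at 6.43, 5.06, 6.36 and 6.69 CPM in Dnmt1 fl/fl replicates 1 and 2 and Dnmt1 KO replicates 1 and 2.

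In the steps of hydration, dehydrogenation and thiolysis, Dnmt1 KO replicate 1 was the highest sample in all 6 of 6 genes. Hadh (chr3:131233419-131272101), the 3-hydroxyacyl-CoA dehydrogenase of short and medium chains, was at 40.5 and 39.0 CPM in Dnmt1 fl/fl and at 60.7 and 44.0 CPM in Dnmt1 KO replicates 1 and 2. Both Dnmt1 KO samples exceeded both controls, replicate 1 by far more, and the log2 fold change was 0.40 (standard error 0.24). It was 0.15 without Dnmt1 KO replicate 1 and 0.61 without Dnmt1 KO replicate 2. Echs1 (chr7:140105710-140116476), the short-chain enoyl-CoA hydratase and at 59.5 CPM per kb the most abundant gene of these steps, was at 88.0 and 77.6 CPM in the controls and at 126 and 78.7 CPM in Dnmt1 KO. Dnmt1 KO replicate 2 lay between the controls, and without replicate 1 the log2 fold change of Echs1 went from 0.31 to -0.075. Acaa2, a mitochondrial thiolase, was at 63.9 and 74.7 CPM in Dnmt1 fl/fl and at 112 and 67.0 CPM in Dnmt1 KO, the same arrangement. Acat1, the acetoacetyl-CoA thiolase, had a log2 fold change of 0.12 with overlapping genotypes.

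Hadha and Hadhb encode the alpha and beta subunits of the mitochondrial trifunctional protein, which carries out the last 3 steps of the cycle on long chains. Hadha was at 172 and 146 CPM in Dnmt1 fl/fl replicates 1 and 2 and at 190.2 and 167 CPM in Dnmt1 KO replicates 1 and 2. Hadhb was at 108 and 91.3 CPM in Dnmt1 fl/fl and at 115 and 102 CPM in Dnmt1 KO. The order of the 4 samples was the same in both genes, with Dnmt1 KO replicate 1 the highest and Dnmt1 fl/fl replicate 2 the lowest, and the genotypes overlapped. Their log2 fold changes were 0.17 and 0.12, each with a standard error of 0.23. They were 0.057 and 0.0027 without Dnmt1 fl/fl replicate 2, and 0.068 and 0.027 without Dnmt1 KO replicate 1. Without Dnmt1 fl/fl replicate 1 they were 0.29 and 0.25, and without Dnmt1 KO replicate 2 they were 0.26 and 0.20.

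Ech1, Decr1, Eci1 and Eci2 encode auxiliary enzymes that reposition or reduce double bonds so that unsaturated chains can be oxidized. Ech1 (chr7:28825217-28832247) was the most abundant of all 33 genes per kilobase, at 77.0 CPM per kb. It was at 89.8 and 88.5 CPM in Dnmt1 fl/fl and at 124 and 88.1 CPM in Dnmt1 KO replicates 1 and 2. Decr1 (chr4:15917240-15945507), 2,4-dienoyl-CoA reductase, was at 25.4 and 27.0 CPM in the controls and at 37.9 and 24.5 CPM in Dnmt1 KO. In both genes Dnmt1 KO replicate 1 was high and replicate 2 was below both controls; the log2 fold change was 0.25 in each. Without Dnmt1 KO replicate 1 it was -0.020 in Ech1 and -0.10 in Decr1. Eci1 was at 11.6 and 12.3 CPM in Dnmt1 fl/fl and at 13.7 and 9.83 CPM in Dnmt1 KO, with the Dnmt1 KO samples on either side of the controls.

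Etfb (chr7:43444083-43457800), the beta subunit of the electron-transfer flavoprotein, had the largest log2 fold change of the 33 in this fit but not in every other one: Hadh led in several, limma-voom among them, and Acox3 led without Dnmt1 KO replicate 1. Etfb was at 47.2 and 55.8 CPM in Dnmt1 fl/fl and at 95.2 and 44.0 CPM in Dnmt1 KO replicates 1 and 2. The Dnmt1 KO samples lay on opposite sides of the controls and differed by 1.10 on the log2 scale, more than the log2 fold change of 0.43 (standard error 0.39). With Dnmt1 KO replicate 1 left out, Etfb had a log2 fold change of -0.23; with replicate 2 left out it had 0.89 (adjusted p = 0.0219 in edgeR, against 1.00 when any other sample was left out), in a fit that called 1061 of all genes (8.32%) and 1 of the 33. Etfb also shares 35.8% of its 100-base stretches with the annotated gene Gm45233, so its count is uncertain where reads fit both. Etfa, the alpha subunit, was at 79.3 and 73.7 CPM in the controls and at 103 and 64.8 CPM in Dnmt1 KO, the same arrangement as Etfb. Etfdh, which hands the electrons to ubiquinone, was at 42.2, 38.5, 37.8 and 39.2 CPM in Dnmt1 fl/fl replicates 1 and 2 and Dnmt1 KO replicates 1 and 2, with overlapping genotypes and a log2 fold change of -0.068.

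The peroxisomal group held 9 genes, of which 7 had a log2 fold change above 0. Scp2 (chr4:108043839-108144998), whose products include a peroxisomal thiolase for branched chains and a lipid carrier, was at 157 and 147 CPM in Dnmt1 fl/fl and at 165 and 169 CPM in Dnmt1 KO replicates 1 and 2. Both Dnmt1 KO samples were above both controls, with a log2 fold change of 0.14 (standard error 0.21). Decr2 (chr17:26081208-26090337), the peroxisomal dienoyl-CoA reductase, was at 16.7 and 16.3 CPM in the controls and at 18.4 and 17.4 CPM in Dnmt1 KO, also without overlap, with a log2 fold change of 0.12 (standard error 0.23), or 0.073 without Dnmt1 KO replicate 1. Both genes overlapped when samples were scaled by their totals alone, with log2 fold changes of 0.068 in Scp2 and 0.044 in Decr2. Scp2 shares 21.8% of its 100-base stretches with the pseudogene Scp2-ps2.

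Acaa1a (chr9:119339676-119350299), a peroxisomal thiolase, was at 96.4 and 105 CPM in Dnmt1 fl/fl and at 148 and 101 CPM in Dnmt1 KO replicates 1 and 2. As a mean over the 4 samples it was the most abundant of the 9, at 63.9 CPM per kb against 60.4 in Scp2. That lead rested on Dnmt1 KO replicate 1. Pecr (chr1:72259167-72284314), trans-2-enoyl-CoA reductase, was at 3.31 and 3.87 CPM in the controls and at 5.81 and 3.31 CPM in Dnmt1 KO. Phyh, which starts the breakdown of phytanic acid, was at 48.9 and 57.9 CPM in the controls and at 77.8 and 53.8 CPM in Dnmt1 KO. In all 3, Dnmt1 KO replicate 1 was high and replicate 2 lay within or at the edge of the control range. The log2 fold changes were 0.30, 0.34 and 0.30, and without Dnmt1 KO replicate 1 they were -0.008, -0.12 and 0.0074.

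Acox3, Ehhadh and Hsd17b4 did not follow that arrangement. Acox3, an acyl-CoA oxidase, was at 148 and 118 CPM in Dnmt1 fl/fl and at 121 and 173 CPM in Dnmt1 KO, with replicate 2 the higher of the Dnmt1 KO samples. Ehhadh, the bifunctional enzyme of straight chains, was the least abundant of the 33, at 3.12 and 2.35 CPM in the controls and 1.87 and 3.52 CPM in Dnmt1 KO. Hsd17b4, the second bifunctional enzyme, was at 108 and 99.2 CPM in the controls and at 102 and 104 CPM in Dnmt1 KO, nearly level across samples. Abcd3, a transporter of the peroxisomal membrane, had a log2 fold change of 0.074 with Dnmt1 KO replicate 1 highest and replicate 2 lowest. Eci1, Etfdh, Ehhadh and Hsd17b4, chosen here after their values were seen, were the only genes of the 33 with a log2 fold change below 0, and the lowest was -0.068.

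Acot13 (chr13:24817948-24831540), a thioesterase that frees fatty acids from CoA, was at 18.9 and 20.3 CPM in Dnmt1 fl/fl and at 28.7 and 19.3 CPM in Dnmt1 KO replicates 1 and 2. Dnmt1 KO replicate 2 lay between the controls, and the log2 fold change was 0.29 (standard error 0.27).

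Per kilobase of the longest annotated transcript, the 33 genes spanned 0.91 CPM per kb in Ehhadh to 77.0 CPM per kb in Ech1, with a median of 25.7. After Ech1 came Etfb at 67.8, Acaa1a at 63.9, Cpt1a at 63.2 and Scp2 at 60.4 CPM per kb. All values per kilobase given here are means over the 4 samples, and the order differed between samples. The place of Etfb rested on Dnmt1 KO replicate 1, at 95.2 CPM against 44.0 to 55.8 CPM in the other samples. Cpt2, at 8.37 CPM per kb, was scarce beside Cpt1a.

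The difference between the Dnmt1 KO samples followed transcript length, and the controls differed with length too, in the opposite direction and by less: from genes of up to 1945 bases to those of 4610 bases or more, the median of Dnmt1 fl/fl replicate 1 over replicate 2 went from -0.12 to 0.14, and that of Dnmt1 KO replicate 1 over replicate 2 from 0.37 to -0.40. Across the 33 genes, Spearman's rho between length and the log2 difference of Dnmt1 KO replicate 1 over replicate 2 was -0.74, and across 12380 genes tested with a known length it was -0.44; genes share these libraries and are not independent replicates. Of the 33, 14 had transcripts of up to 1945 bases, the length below which 3095 of the 12380 genes lie, and in those 14 of 14 Dnmt1 KO replicate 1 was above replicate 2, by a median of 0.54, against 72.9% and a median of 0.37 in those 3095 genes. In the 8 genes of the 33 between 3405 and 4317 bases the median difference was -0.042, against -0.086 in all genes from 3074 to 4607 bases. Removing the trend with length from each library, a choice made after the data were seen, left the median log2 fold change of the 33 at 0.15 with 29 above 0. The genes above both controls in both Dnmt1 KO samples then numbered 12 (36.4%, against 10.3% of all genes), the same 6 among them, and 1 gene, Eci1, was below, against 8.44% of all genes. With the trend removed, the median of the 33 was 0.23 above the control mean in Dnmt1 KO replicate 1 and 0.049 in replicate 2, against 0.043 and -0.00034 over all genes. Dnmt1 KO replicate 1 was then above replicate 2 in 25 of the 33, against 23 with the trend kept. It was the highest of the 4 samples in 23. The median difference of replicate 1 over replicate 2 was 0.15 in the 33, against 0.039 over all genes. With the trend kept it was 0.23 in the 33. What made the libraries differ with length was not tested.

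Other genes of the pathway were counted from lists written by function. Of 31 other fatty acid oxidation genes, 28 were tested; 4 were above (14.3%, against 8.14% of all genes tested) and 1 below (3.57%, against 8.56%) in both Dnmt1 KO samples, and the median log2 fold change was 0.16. Amacr, the racemase of branched chains, was at 5.55 and 5.54 CPM in Dnmt1 fl/fl and at 6.72 and 6.74 CPM in Dnmt1 KO, above without overlap. Acad11 was the gene below, at 15.3 and 15.5 CPM against 14.1 and 14.8 CPM. Unlike the 33, this list did not lean to Dnmt1 KO replicate 1, which exceeded replicate 2 in 12 of the 28 genes; the difference between lists was not tested.

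Of 17 genes of fatty acid uptake and activation, 15 were tested; 0 were above and 3 below without overlap, against 8.14% and 8.56% of all genes. Cd36, the fatty acid translocase and the most abundant, was at 2726 and 1944 CPM in Dnmt1 fl/fl and at 2352 and 1450 CPM in Dnmt1 KO, with overlapping genotypes. The largest difference downward was in Slc27a3, a scarce member at 2.63 and 3.15 CPM in the controls and 1.92 and 2.63 CPM in Dnmt1 KO, so that replicate 2 nearly touched the controls. Of 7 ketone body enzymes, 6 were tested and 2 were above without overlap, against the same 8.14%. Oxct1, which activates acetoacetate for its use as a fuel and was the most abundant, was at 277 and 213 CPM in the controls and at 237 and 248 CPM in Dnmt1 KO, with overlapping genotypes.

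Regulators of fatty acid oxidation, transcription factors and kinases, gave 25 of 28 genes tested, with 2 above (8.0%, against 8.14% of all genes) and 0 below (against 8.56%) without overlap and a median log2 fold change of -0.0012. Dnmt1 KO replicate 1 exceeded replicate 2 in 7 of the 25 (28.0%, against 49.3% of all genes tested). The median difference between them was -0.33 on the log2 scale. Esrra, a nuclear receptor that acts with PGC-1 coactivators on mitochondrial genes, was at 51.9 and 49.1 CPM in Dnmt1 fl/fl and at 52.6 and 57.2 CPM in Dnmt1 KO. Rxra, the partner of the PPAR receptors and the most abundant regulator, was at 132 and 126 CPM in the controls and at 132 and 135 CPM in Dnmt1 KO, a log2 fold change of 0.048 that became -0.021 with scaling by totals alone. Ppara was not among the genes of the table. Of 9 PPAR target genes, 8 were tested and 7 had a log2 fold change above 0, with 1 above without overlap (12.5%). That gene, Creb3l3, was scarce, at 0.78 and 0.997 CPM in the controls and 1.57 and 1.06 CPM in Dnmt1 KO. Plin2, which coats lipid droplets and was the most abundant, was at 2008 and 1618 CPM in the controls and at 3971 and 1819 CPM in Dnmt1 KO, high in replicate 1 alone.

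Neighbouring mitochondrial pathways leaned to Dnmt1 KO replicate 1 as well. Peroxisome biogenesis genes, counted beside them, did so less: replicate 1 exceeded replicate 2 in 11 of 17 (64.7%, against 49.3% of all genes tested). Genes above without overlap made up 8.93% of respiratory chain subunits, 13.6% of TCA cycle enzymes, 6.67% of import and structure genes and 17.6% of peroxisome biogenesis genes, against 8.14% of all genes tested. All 56 of 56 nuclear-encoded respiratory chain subunits were higher in Dnmt1 KO replicate 1 than in replicate 2, by a median of 0.80 on the log2 scale, and the median log2 fold change between genotypes was 0.35. Cox4i1, the most abundant, was at 259.6 and 273 CPM in Dnmt1 fl/fl and at 439 and 260.2 CPM in Dnmt1 KO. Its log2 fold change of 0.39 was 0.20 with the trend with length removed. Ndufv3, the largest upward difference without overlap among the 5 subunits so placed, was at 26.6 and 28.1 CPM in the controls and 50.2 and 30.1 CPM in Dnmt1 KO. For 22 TCA cycle enzymes the median difference between the Dnmt1 KO samples was 0.43 and that between genotypes 0.15; 3 were above without overlap, led by Fh1, fumarate hydratase, at 38.1 and 38.1 CPM in the controls and 45.4 and 41.9 CPM in Dnmt1 KO. Sdha, the most abundant of them, was at 256, 258, 325 and 248 CPM. For 15 genes of mitochondrial import and structure the medians were 0.68 and 0.20, with Mfn1 the 1 gene above at 39.5, 37.0, 42.5 and 40.5 CPM and Vdac2 the most abundant at 292, 281, 407 and 238 CPM. For 17 genes of peroxisome biogenesis they were 0.12 and 0.014, with 3 above, led by Pex14 at 19.3, 19.1, 27.6 and 19.6 CPM, and with catalase, Cat, the most abundant at 95.8, 84.8, 78.7 and 97.7 CPM. The corresponding medians of the 33 fatty acid oxidation genes were 0.23 and 0.17, and those of all genes -0.011 and 0.0046. In tested genes with transcripts of up to 1945 bases they were 0.37 and 0.15.

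**Figure D2:**
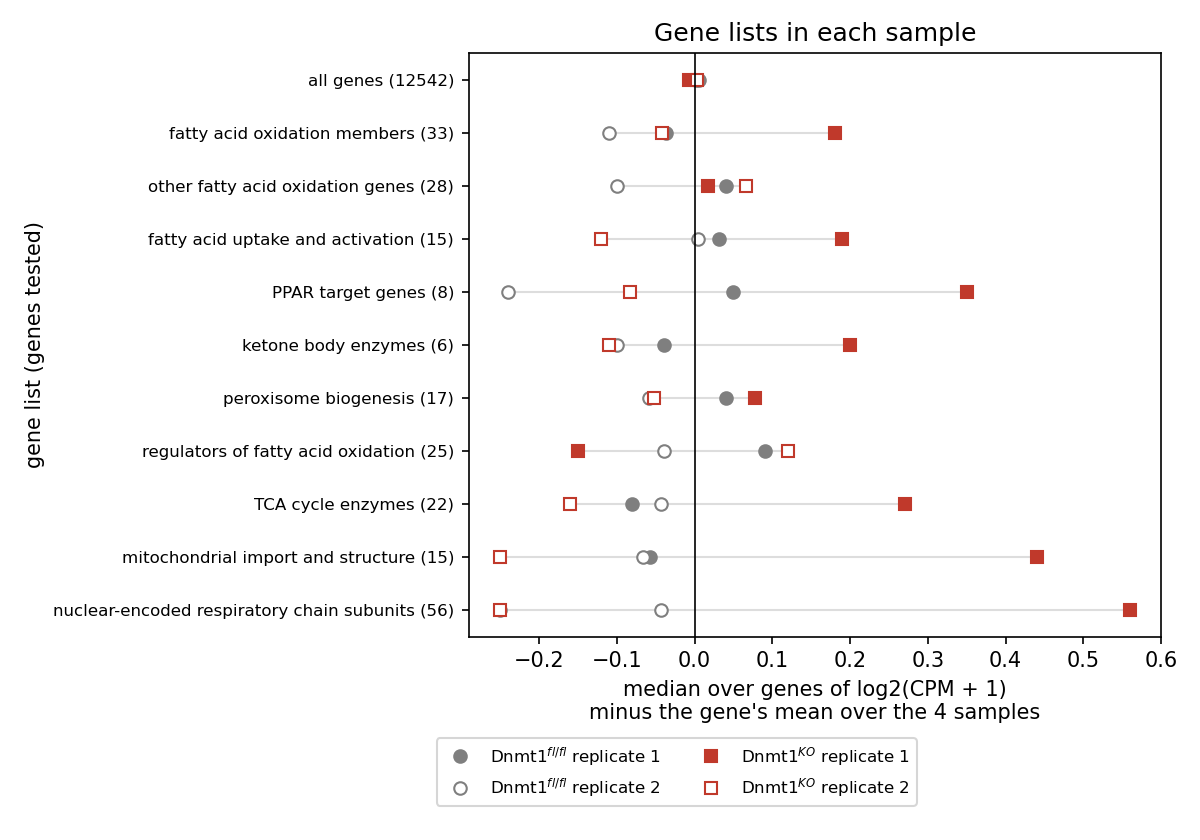
Each point is the median, over the genes of a list, of log2(CPM + 1) in 1 sample minus the mean of that gene over the 4 samples. The median of the fatty acid oxidation genes is 0.18 in Dnmt1 KO replicate 1 and -0.042 in Dnmt1 KO replicate 2, and of the lists drawn the respiratory chain subunits are the furthest apart, at 0.56 and -0.25.

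Since Dnmt1 maintains methylation at CpG, the promoters were read for CpG; methylation itself was not analysed here. RefSeq windows on GRCm38.p6, from 250 bases before to 50 bases after the start, matched 26 of the 33 genes in 27 windows, with no entry for Crat, Hsd17b4, Acaa2, Acad9, Acat1, Acot13 and Decr1. A window held 9 to 45 CpG, with a median of 17, against a median of 20 over tested genes and 7 over all genes. The nuclear receptor hexamer AGGTCA, searched on both strands, occurred in 6 windows (22.2%), against 12.5% of tested and 16.3% of all windows. The GC box GGGCGG occurred in 20 windows (74.1%), against 61.3% of tested and 35.7% of all windows, and CCAAT in 9 (33.3%), against 37.5% and 37.4%.

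The stretch before the RefSeq start of Cpt1a is shown because Cpt1a was the most abundant of the 6 genes without overlap in CPM. It covers the 234 bases of the window that no annotated exon reaches, at chr19:3323051-3323284 on the plus strand of GRCm38.p6, and in GENCODE M21 it is intronic to a longer Cpt1a transcript. Capitals mark its 10 CpG, most of them near its 3′ end, and it holds AGGTCA once, on the opposite strand.
Cpt1a: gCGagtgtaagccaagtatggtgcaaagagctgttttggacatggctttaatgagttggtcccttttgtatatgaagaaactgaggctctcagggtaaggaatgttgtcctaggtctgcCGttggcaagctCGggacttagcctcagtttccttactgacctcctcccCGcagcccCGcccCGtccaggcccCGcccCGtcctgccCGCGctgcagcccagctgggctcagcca

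Hadha, on the minus strand (chr5:30118304-30155162), and Hadhb, on the plus strand (chr5:30155248-30184593), lie back to back in GENCODE M21. Their RefSeq starts, from which the promoter windows were taken, are at 30154980 and 30155253, and the windows overlap by 228 bases. The 85 bases between the genes as GENCODE places them, at chr5:30155163-30155247 on the plus strand, are shown because they separate the genes of both subunits; neither RefSeq start lies within them. The order of the 4 samples that they share was found in 5 of the 33 genes, also in Acads, Echs1 and Eci2, which lie elsewhere. Capitals mark the 9 CpG in it.
Hadha and Hadhb: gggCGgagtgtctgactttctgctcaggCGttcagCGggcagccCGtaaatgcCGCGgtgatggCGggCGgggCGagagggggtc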

How the data were processed

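The authors deposited estimated counts per gene, not normalized, for 4 libraries; their processing notes name HISAT2 2.0.5, featureCounts 1.5.0-p3, DESeq2 1.20.0 and the mouse build mm10. Whole numbers made up 72.6% to 76.4% of each column. The sources used here do not say how reads fitting more than 1 gene were divided or whether counting used strand. Columns of no sample numbered 0. A shorter table of the same series was not used here. Rounded values passed filterByExpr and were scaled by TMM, using edgeR 4.0.16 under R 4.3.3, and the genotypes were compared with the quasi-likelihood F-test, two-sided, without a block, with Benjamini-Hochberg adjustment over 12542 genes. Replicates varied by 28.9% (common dispersion 0.0837), and 3 counts correspond to 0.12 to 0.151 CPM, a floor for counting error only. The edgeR test was also run on simulated counts, and the outcome is not reported here. Alternatives were DESeq2 1.42.0, RLE factors, limma-voom (limma 3.58.1), 2 other filters, a replicate block and leaving out each sample. Scaling by totals, a crossed pairing and removal of a length trend (loess, span 0.5, 162 genes without a length left out) were added after the data were seen. Tables and plots used Python 3.11.15 with pandas 2.3.3 and Matplotlib 3.10.9.

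The members and lists were chosen with earlier results of these data known. Genes named are each member whose genotypes do not overlap, in each role the member with the largest absolute log2 fold change and the one with the highest CPM per kb, and from each pathway list the largest difference up and down without overlap and the most abundant gene, of which 2 are not reported here; Acaa2, Acad10, Acat1, Acox3, Abcd3, Cpt2, Eci1, Etfa, Etfdh, Ehhadh, Hadha, Hadhb, Hsd17b4 and Phyh, and the markers beyond the most abundant, were added after their values were seen. Symbols were looked up in GENCODE M21 (GRCm38) for positions and for the length of the longest basic transcript. Sequence sharing was counted over all 100-base stretches of a member that recur in another gene's transcripts; beside Etfb and Scp2 it exceeded 10% in Acadvl (14.9%, Dvl2) and Hadhb (14.8%, Gm13910), and it was 9.72% in Acaa1a (Acaa1b), so these counts are uncertain where reads fit both. Promoter sequences are from RefSeq. The study describes n in general terms, as independent repeats, cells or tests, or animals, and gives n as 2 for the sequencing. No source used here says that the sequenced replicates are separate mice. P-values thus measure only the spread between these samples, which may be technical.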

Additional observations from a re-analysis of the deposited data

How the results depend on the processing

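Limits: with 2 samples per genotype and a coefficient of variation of 28.9%, differences as small as those of the fatty acid oxidation genes could not be told from the spread between replicates, and where a sample is left out the lone sample of its genotype is assumed to vary like the others. Of 297 log2 fold changes of the 33 genes in other fits on all 4 samples, 3 changed sign: with totals alone, Acadsb was at -0.036, Acad9 at -0.023 and Abcd3 at -0.0098, as was the regulator Rxra at -0.021. With the length trend removed, Oxct1 was at 0.024, 12 of the 33 genes were above (10.3% of all genes) and 1 below (8.44%) without overlap. Log2 fold changes then fell to 0.24 in Etfb, 0.13 in Ech1, 0.21 in Pecr and 0.11 in Acot13. Those of Eci2, Etfa, Acadl and Eci1 fell to 0.11, 0.021, 0.033 and -0.15. Others rose, to 0.15 in Acadsb, 0.10 in Acad9, 0.12 in Abcd3, -0.0026 in Ehhadh and -0.0033 in Hsd17b4. With scaling by totals alone 4 were above (5.94% of all genes), 2 of them among the 6 named, and the median of the 33 was 0.093. DESeq2 called 1 gene. Without a filter, 60 genes had an unadjusted p under 0.05.

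With the replicate block, 0 genes were called, 34 had an unadjusted p under 0.05, 6 of the 33 were above without overlap, their median log2 fold change was 0.17 and that of Dnmt1 was -0.94; the block changed no call, and Hadh (0.38) came before Etfb (0.33). Deviations of same-numbered samples from the genotype means correlated at -0.415 across genes, so the numbers were not taken as pairs. With the pairing crossed, chosen after the data were seen, 3 genes were called and 297 had an unadjusted p under 0.05.

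Leaving out 1 sample gave 0 to 1061 genes called, the most without Dnmt1 KO replicate 2 and 2 and 10 without Dnmt1 fl/fl replicates 1 and 2. It gave 43 to 3521 genes at an unadjusted p under 0.05, 0 to 1 of the 33 called (Etfb, without Dnmt1 KO replicate 2), 9 to 25 of the 33 above and 0 to 8 below without overlap (20.1% to 41.0% of all genes above and up to 41.8% below), 19 to 31 with a log2 fold change above 0, and a median of 0.011 to 0.25. Dnmt1 was at -1.12 to -0.75, with an adjusted p of 0.02 in edgeR without Dnmt1 KO replicate 2 and 1.00 without any other sample. Log2 fold changes that changed sign with a sample left out ran from -0.087 to 0.27 in Acadl, from -0.044 to 0.43 in Acadvl, from -0.031 to 0.11 in Acadsb, from -0.039 to 0.14 in Acad9, from -0.075 to 0.61 in Echs1, from -0.05 to 0.69 in Acaa2, from -0.0082 to 0.23 in Acat1, from -0.29 to 0.20 in Eci1, from -0.10 to 0.53 in Decr1, from -0.02 to 0.47 in Ech1, from -0.24 to 0.43 in Etfa, from -0.23 to 0.89 in Etfb, from -0.13 to 0.37 in Acox3, from -0.54 to 0.36 in Ehhadh, from -0.065 to 0.056 in Hsd17b4, from -0.008 to 0.55 in Acaa1a, from -0.17 to 0.28 in Abcd3, from -0.12 to 0.69 in Pecr, from -0.028 to 0.55 in Acot13, from -0.69 to 0.011 in Cd36, from -0.19 to 0.19 in Oxct1, from -0.20 to 0.11 in Cat, from -0.052 to 0.34 in Sdha, from -0.035 to 0.72 in Cox4i1 and from -0.27 to 0.51 in Vdac2. Without a change of sign, log2 fold changes ran from 0.035 to 0.29 in Acads, 0.026 to 0.37 in Acad10 and 0.061 to 0.30 in Eci2. They ran from 0.0074 to 0.54 in Phyh, 0.022 to 0.08 in Rxra and -0.13 to -0.0004 in Etfdh. The cause of these changes was not tested.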
